A study of Mus musculus with 20 samples.

Results

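N6-methyladenosine (m6A) peaks of chromatin-associated RNA in the Ythdc1 cKO were compared with those in the control of the Mettl3 line, a control that the cKO was not made against. The peaks of the 4 lists, 2 per group, were merged on each strand where they overlapped by at least 1 bp. This gave 66162 regions, while the 10 lists of the series held 437949 peaks on the main chromosomes. A region was called cKO-specific when it had a peak in both cKO libraries and in neither Mettl3 control, and control-specific in the opposite case. All cells were embryonic stem cells of C57BL/6 mice, and LIF, CHIR99021 (a GSK3 inhibitor) and PD0325901 (a MEK inhibitor) were in the medium of every group. The cKO libraries came from cells in which Ythdc1 was deleted, where cKO usually stands for conditional knockout, and the Mettl3 controls came from the control cells of the Mettl3 knockout lines. How either gene was deleted, what the control cells carry, and whether each group is 1 clone, are not given in the sources used here. Nothing in the labels ties the 2 libraries of a group to separate cultures, so p-values measure only the spread between libraries, which may be technical. Loss of Ythdc1 and the difference between the 2 parent lines cannot be told apart in this comparison alone. The regions were therefore also looked up in the 6 immunoprecipitated libraries that the comparison did not use, the 2 Ythdc1 controls, the 2 Mettl3 KO1 and the 2 Mettl3 KO2 libraries.

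m6A is the most frequent modification inside messenger RNA and is placed by a nuclear complex whose catalytic subunit is Mettl3, mostly at adenosines within a DRACH sequence (D is A, G or T, R is A or G, H is A, C or T), of which GGAC is the best known core. Ythdc1 is the reader of m6A that resides in the nucleus. It is known to bind methylated RNA in chromatin and to take part in splicing, export and the decay of short-lived nuclear transcripts, among them promoter-associated, enhancer and repeat RNAs. The chromatin fraction is rich in such transcripts and in introns that are not yet spliced.

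Sites near the summits of exonic regions are printed to show the sequence context of the calls. They come from the strongest exonic regions of each kind and, for Tcstv1 and Tcstv3, from the 2-cell-like list described further on, whose peaks here ranked at percentiles 60.7 to 75.5 of the control lists. They were chosen for holding GGAC, which is also common away from summits. Each line gives 30 bases of the sense strand from a GENCODE M21 transcript (GRCm38, the assembly of mm10), 5′ to 3′, with the GGAC nearest to the summit in capitals. The first 4 come from cKO-specific regions, the next 5 from control-specific regions and the last 2 from regions found in all 4 libraries.
Klhl3, 3′ UTR, chr13:58004573-58004602, minus strand: ctcctccttgactGGACtctaggaggcgga
Grik3, 3′ UTR, chr4:125711767-125711796, plus strand: tggccagtgagttGGACttagaatccttga
Ccdc184, coding exon, chr15:98168680-98168709, plus strand: cgcctgggatcgaGGACagcggcttgctgg
1700110K17Rik, non-coding exon, chr9:40342252-40342281, plus strand: ctgatcatccctgGGACagaagggctcaga
Fosb, 5′ UTR, chr7:19309643-19309672, minus strand: accgacagagcctGGACtttcaggaggtac
Ppp2r2c, 3′ UTR, chr5:36954626-36954655, plus strand: aaataagtctttgGGACccgaagaaatcac
Zdhhc23, 3′ UTR, chr16:43968621-43968650, minus strand: caggaaatcccggGGACcgaagcagaccgc
Tcstv1, coding exon, chr13:119893857-119893886, minus strand: tatttgagagtgtGGACtacctgagatcct
Tcstv3, coding exon, chr13:120317775-120317804, plus strand: tatttgagagtgtGGACtacctgaaatcct
Gmeb2, 3′ UTR, chr2:181253691-181253720, minus strand: cagaggccactacGGACacaggccacaggg
Trmt13, coding exon, chr3:116582662-116582691, minus strand: tttcaaggctcttGGACttggggcggtaga
The A of GGAC lay 42 nt before the summit in Klhl3 and 10 nt after it in Grik3, and 4 nt after it in Trmt13. In Tchh, a coding exon region that was cKO-specific, in Adgrb1 (control-specific) and in Brwd3 (all 4 libraries) no GGAC lay within 100 nt of the summit. Of the 2-cell-like list, the control-specific exonic regions of Usp17la, Zscan4a, Zscan4b, Zscan4c and Zscan4e and 1 of the 2 in Zfp352 held none within that distance either. For those of Zscan4d and Zscan4f the nearest GGAC lay 96 nt before the summit along the transcript, in another exon outside the region. Tcstv1 and Tcstv3 are near-identical genes, as their lines show.

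Of the 66162 regions, 8833 (13.4%) were cKO-specific, 7978 (12.1%) control-specific and 26139 (39.5%) shared by the 4 libraries. Without Mettl3 control replicate 1 the control-specific count was 12679, and no other omission of a library moved a count by over 1.5 times. The remaining 23212 regions were present in only part of a group, 14946 of them in 1 library. The lists held 45494 and 45634 peaks in the cKO and 45313 and 46761 in the controls. The cKO libraries found 86.7% and 86.5% of each other's peaks, and 66.9% to 68.6% of their peaks in a control library. Depth was read from the background pile-up behind the deposited p-values, which on the plus strand came to 20.03 and 19.27 reads in the cKO, 16.38 and 18.15 in the Mettl3 controls and 17.77 and 15.69 in the Ythdc1 controls. It was thus highest in the cKO. With the lists cut to an equal length of 41941 peaks, 8414 regions were cKO-specific and 7262 control-specific. The part of depth was otherwise not tested. The lists carry no RNA levels, so more methylation and more of a transcript cannot be told apart anywhere below.

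The 2 kinds of specific region lay in different places. Of the cKO-specific regions 3572 (40.4%, Wilson 95% interval 39.4 to 41.5, counting error only) had their summit between genes, against 1582 (19.8%) of the control-specific and 3740 (14.3%) of the shared regions. Antisense positions held 1318 (14.9%) of the cKO-specific, 846 (10.6%) of the control-specific and 1746 (6.68%) of the shared regions. Introns held 3915 (49.1%) of the control-specific regions but 2218 (25.1%) of the cKO-specific ones. Exons of messenger RNA held few of either kind, with coding exons at 9.0% of cKO-specific, 7.95% of control-specific and 25.8% of shared regions. Read the other way, 43.8% of the 8151 intergenic regions found in both cKO libraries were absent from both controls, against 9.9% of the 8029 in coding exons.

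**Figure D1:**
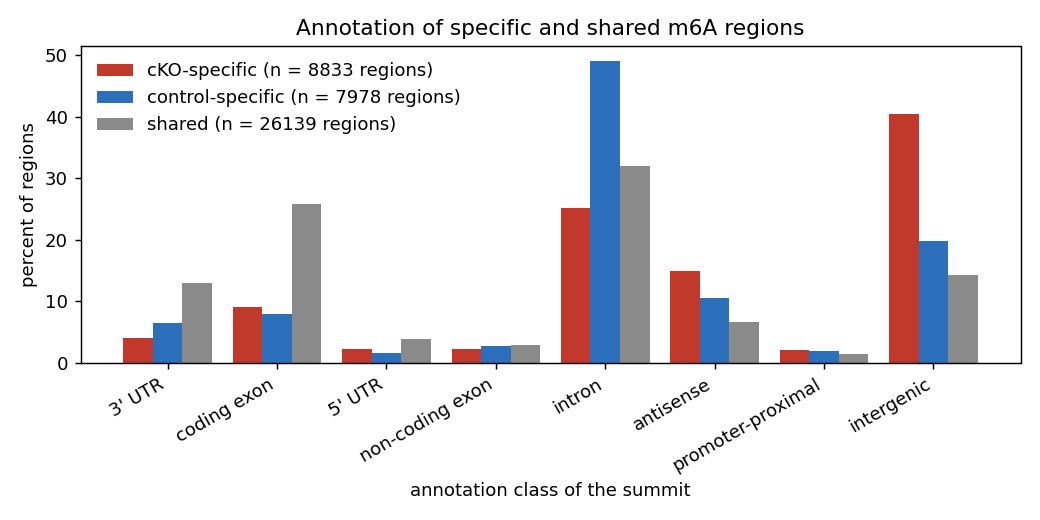
Percent of cKO-specific, control-specific and shared regions (bars) in each annotation class of the summit. Intergenic positions hold 40.4% of the cKO-specific bars and introns 49.1% of the control-specific ones.

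Whole lists showed the same order. Intergenic peaks made up 21.6% and 20.99% of the cKO lists and 15.62% and 15.8% of the Mettl3 control lists, so the groups did not overlap and differed by 5.59 points, more than the spread within them (SD 0.433 and 0.127, n = 2 each). Intron peaks made up 31.51% and 31.94% of the cKO lists and 38.21% and 38.25% of the control lists, a difference of -6.5 points. Antisense peaks stood at 9.162% and 9.132% in the cKO and 7.902% and 8.067% in the controls. With 2 libraries against 2 an exact two-sided permutation test cannot give a p below 0.333, which all 3 classes reached (adjusted p = 0.428 over 9 classes), so none can pass 0.05. The groups did not overlap in 3′ UTR, coding exon and 5′ UTR peaks either, with differences of -0.918, 0.532 and 0.0474 points. The same held for peaks within 2 kb upstream of a gene, at 0.0692 points. Lack of overlap was thus frequent among the classes, and the 3 classes above stand out only by the size of the difference. Set against the Ythdc1 controls, at 10.23% and 10.05% intergenic, the Mettl3 controls lay closer to the cKO.

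Specific regions were weaker than shared ones. Height was taken as the rank of a peak's fold enrichment within its own list, in percent, since a fold has no common scale between libraries. All fold enrichments given here are the authors' values, and a region is called strongest by the smaller of its 2 fold enrichments in the group, not by rank. The median cKO-specific peak stood at percentile 43.3 and 42.5 of the cKO lists (4.28-fold and 4.29-fold), the median shared peak at 64.9 and 65.3. The median control-specific peak stood at percentile 37.5 and 38.7 of the control lists. Median width was 255 bp for cKO-specific, 248 bp for control-specific and 493 bp for shared regions. Shared regions join peaks of all 4 lists and specific ones peaks of 2, so these widths are not a like comparison. The share was also taken by height and class. Regions in both cKO libraries were split into 5 equal bins by the smaller of their 2 ranks, and in the weakest bin 55.3% of intergenic and 20.9% of coding exon regions were cKO-specific. In the strongest bin these shares were 12.5% of 1497 and 1.72% of 2620. In the controls, intron regions were close to intergenic ones in the 3 weakest bins, at 42.5%, 37.4% and 28.7% control-specific against 44.1%, 37.9% and 31.7%.

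**Figure D2:**
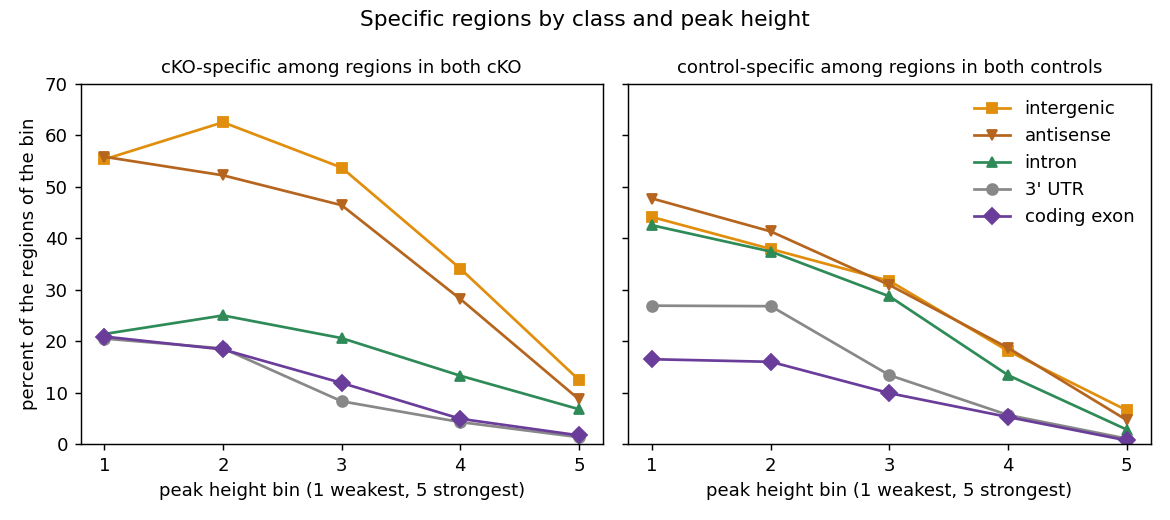
Percent of regions that were specific (vertical axis), by annotation class, in 5 equal bins of peak height (1 weakest, 5 strongest), for regions in both cKO libraries (left) and in both Mettl3 controls (right). Intergenic and antisense regions lie above exon regions in every bin of the left panel, where introns stay between 6.8% and 25%.

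The question of the comparison was which cKO peaks stay new when another control line is used. Of the 8833 cKO-specific regions, 6206 (70.3%) had no peak in either Ythdc1 control, 801 had one in 1 of them and 1826 (20.7%) in both. The control-specific regions lacked a peak in both Ythdc1 controls nearly as often, in 5071 of 7978 cases (63.6%). The share was 11.9% among shared regions and 42.7% among all 66162, so absence from the Ythdc1 controls was frequent for specific regions of either kind. Starting from the Ythdc1 controls, 10731 regions were in both cKO libraries and neither of those controls. Of these, 6206 (57.8%) were also absent from both Mettl3 controls, while 3218 (30%) had a peak in both. The 2 comparisons share the cKO libraries, so the overlap is a description. The 6206 regions absent from all 4 control libraries made up 16.2% of the 38242 regions that both cKO libraries held.

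How many stayed new depended on the class. Intergenic regions stayed new in 3177 of 3572 cases (88.9%), antisense in 997 of 1318 (75.6%) and intron regions in 1317 of 2218 (59.4%). Coding exon regions did so in 302 of 795 (38.0%) and 5′ UTR regions in 58 of 192 (30.2%), so most of the regions in these 2 classes were present in at least 1 library of the cKO's own control line. The control-specific regions had a like order of classes for absence from both Ythdc1 controls, at 77.2% intergenic, 68.3% intron, 63.8% antisense, 36.8% 5′ UTR and 31.9% coding exon. The order is thus not particular to the cKO-specific regions. Intergenic positions thus made up 51.2% of the regions absent from all 4 controls, introns 21.2%, antisense positions 16.1% and coding exons 4.87%. Those present in both Ythdc1 controls had a median rank of 38.5 and 41.1 in the cKO lists, and those in neither 44.8 and 42.9.

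The other libraries differed in how often they held these regions. The Ythdc1 controls held 25.6% and 24.8% of the cKO-specific regions, KO1 7.7% and 7.88%, and KO2 13.2% and 11.3%. Control-specific regions showed the reverse, at 30.1% and 27.8% in the Ythdc1 controls, 50.6% and 50.6% in KO1 and 54.7% and 51.3% in KO2. Control-specific intron regions were present in 68.4% and 67.4% (KO1) and 60.4% and 57% (KO2), but in 25.6% and 22.8% of cases in the Ythdc1 controls. For coding exons the order was opposite, at 59.5% and 58.5% in the Ythdc1 controls and 38.6% to 45.7% in the Mettl3 knockouts. Each of these 4 differences between 2 Ythdc1 control and 4 Mettl3 knockout libraries gave an exact two-sided permutation p of 0.0667, the smallest that 15 splits allow (adjusted p = 0.109 over 18 comparisons), so none passes 0.05. The Mettl3 knockout libraries come from 2 lines, so their 4 values are not independent. Shared regions had the same orders for introns and coding exons. In introns they stood at 80.4% and 78.3% in the Ythdc1 controls and 84.2% to 86.4% in the knockouts. In coding exons they stood at 97.4% and 97.4% against 87.5% to 91.7%. Whole lists did too, with coding exons at 27.32% and 28.15% against 20.02% to 21.96%. Introns there made up 35.08% and 34.06% against 39.37% to 50.13%. Intron regions that were cKO-specific went the other way, at 34.7% and 34.0% against 16.7% to 18.3%. Of the control-specific regions, 1435 were in all 4 Mettl3 knockouts and no Ythdc1 control, and 598 in all 4 and both Ythdc1 controls. Only 58 and 149 cKO-specific regions had these patterns. Regions shared by the comparison were frequent in all of these libraries. The Ythdc1 controls held 85.5% and 84.3% of them, KO1 77.8% and 77.9%, and KO2 85.3% and 84.5%. All 4 Mettl3 knockouts held 17922 (68.6%) of them, and 80.3% of those in coding exons. Peaks are called m6A peaks here after the immunoprecipitation, and whether a peak depends on Mettl3 was not tested.

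**Figure D3:**
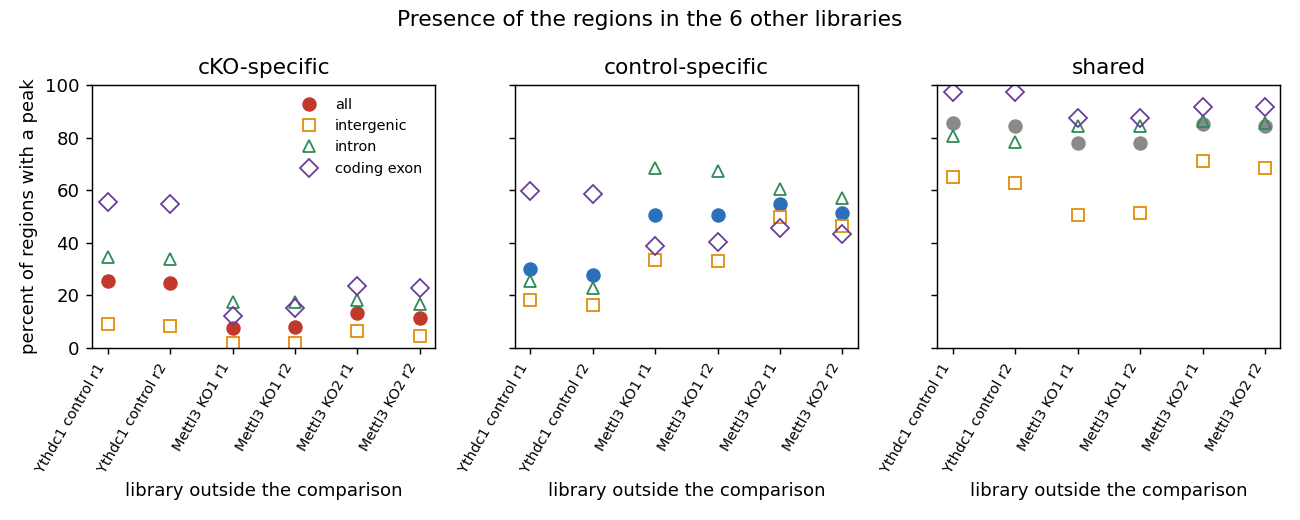
Percent of cKO-specific, control-specific and shared regions with a peak in each of the 6 libraries outside the comparison (points), for all regions and for 3 annotation classes. The Ythdc1 controls hold 25.6% and 24.8% of the cKO-specific regions, above all 4 Mettl3 knockout libraries.

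The intergenic cKO-specific regions lay farther from genes than the other intergenic regions did. Their median distance to any gene was 26.5 kb, against 8.98 kb for control-specific and 12.1 kb for shared intergenic regions. Within 5 kb past the end of a gene on the same strand lay 5.43% of them, against 24.3% and 17.6%, and within 50 kb 34.4%, against 67.3% and 55.1%. More than 50 kb from any gene lay 1137 (31.8%) of them, 12.1% of the control-specific and 17.1% of the shared ones. Runs of at least 3 cKO-specific regions on 1 strand, with gaps of at most 10 kb, held 30.4% of them in 270 runs, against 21.6% of the control-specific and 25.2% of the shared intergenic regions.

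The longest run had 23 cKO-specific regions in 37.8 kb (chromosome 6, 47740345 to 47778175, plus strand, mm10). It began 103 kb past the small RNA gene model Gm25283 and ended 3.56 kb before Rny3, which encodes a Y RNA. Its folds lay between 1.9 and 16.5 in the cKO, and none of its regions had a peak in a Ythdc1 control or a Mettl3 knockout. Further upstream on that strand stood the strongest of all regions absent from the 4 controls (47682764 to 47683027), at 17.7-fold and 18.7-fold. Runs of 12 regions lay 41.4 kb upstream of Tspyl5 and of 11 between Cd209b and Cd209d, lectin receptor genes. A run of 11 regions lay 31.7 kb upstream of Gulp1, an engulfment adaptor gene, on the same strand. Further runs of 9 regions lay among olfactory receptor genes near Olfr478 and between the vomeronasal receptor genes Vmn1r83 and Vmn1r81. In the Cd209 run 10 of 11 regions lacked a peak in both Ythdc1 controls, and in the other runs named so far all did. A run of 11 regions also lay 1370 kb past Gm25440, and runs of 10 lay 20.2 kb past BC061212 and 280 kb past Gm14867. In the BC061212 run only 7 of 10 regions lacked a Ythdc1 control peak, and in the Gm25440 and Gm14867 runs all did. Repeats and similar copies under the runs, such as those among related receptor genes, were not examined. The assignment of reads there is thus uncertain, and the regions of a run may not be separate sites. The longest control-specific intergenic run had 13 regions in 19.3 kb (chromosome 1, 103910995 to 103930249, minus strand), and 10 of them had a peak in a Mettl3 knockout.

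Within genes, cKO-specific regions were fewer than control-specific ones. Of 45299 sense-strand regions in genes, 3759 (8.3%) were cKO-specific and 5396 (11.9%) control-specific. They lay in 2447 (19.2%) and 3367 (26.4%) of the 12735 genes with a region, and 475 genes held both kinds. In 706 genes with a cKO-specific region neither control had any peak, and in 819 genes with a control-specific region neither cKO library did. At least 5 cKO-specific regions were found in 80 genes, with a median length of 338 kb, and at least 5 control-specific ones in 123 genes, with a median of 234 kb, while the median over all genes with a region was 23.7 kb. Longer genes have more room for regions, so genes picked by their count of regions cannot be compared with that last median. Of the cKO-specific intron regions 29.8% lay over 100 kb from the start of the gene, against 21.4% of the control-specific and 22.0% of the shared ones.

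Rgs20, a regulator of G protein signalling, held the most. Of its 28 regions 26 were cKO-specific, 24 of them in introns, and 22 had no peak in either Ythdc1 control. The lists held 30 and 26 peaks on its sense strand in the cKO, 0 and 0 in the Mettl3 controls, 5 and 2 in the Ythdc1 controls and 0 in each Mettl3 knockout library. Its strongest region (chromosome 1, 5056829 to 5057429, minus strand) reached 9.35-fold and 10.1-fold. A region in its 5′ UTR (5070057 to 5070310), at 8.75-fold and 7.94-fold in the cKO, had peaks of 4.42-fold and 4.97-fold in the Ythdc1 controls too. So a peak at the start of the gene was present in the cKO's own control line, while most regions farther in were not.

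**Figure D4:**
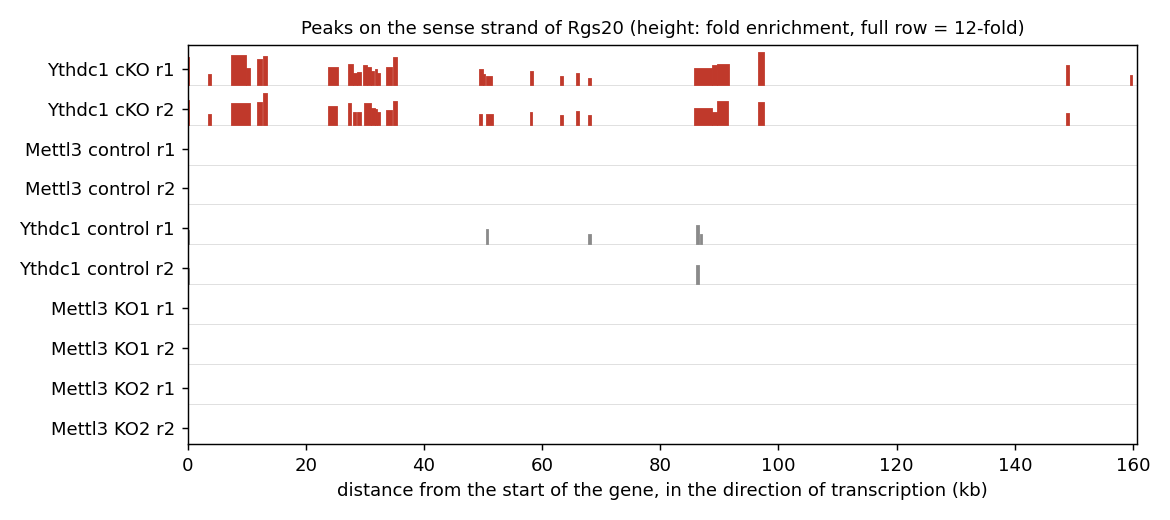
Peaks on the sense strand of Rgs20 in the 10 libraries, by distance from the start of the gene in kb. Bar height is the authors' fold enrichment, and a full row is 12-fold. The cKO rows hold 30 and 26 peaks, the Mettl3 rows none and the Ythdc1 control rows 5 and 2.

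Fhit, which lies at a chromosomal fragile site, came next with 21 cKO-specific regions, all in introns and all absent from both Ythdc1 controls. A further 10 of its 43 regions were shared with the Mettl3 controls. The strongest of the 21 (chromosome 14, 9725028 to 9725277, minus strand) reached 10.8-fold and 13.5-fold and also a peak in both KO1 libraries, at 5.54-fold and 5.65-fold. Sox6, a transcription factor gene, held 17, of which 13 stayed new. Its strongest (chromosome 7, 115811796 to 115812090, minus strand) had 13-fold and 12.3-fold in the cKO and 6.1-fold and 3.84-fold in the Ythdc1 controls. Pdzrn4, a PDZ and RING finger gene, held 16, of which 15 stayed new. Syne2, which encodes the nuclear envelope protein nesprin-2, was the exception among the leading genes, since only 2 of its 13 cKO-specific regions stayed new. Its strongest (chromosome 12, 75971629 to 75971852, plus strand) reached 10.5-fold and 7.32-fold in the cKO and 9.16-fold and 8.76-fold in the Ythdc1 controls. Mcc held 12, of which 8 stayed new.

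Lsamp, a neural cell adhesion gene, the teneurin gene Tenm1, Zfpm2, a cofactor of GATA factors, and Ghr, the growth hormone receptor, held 10 cKO-specific regions each, all of which stayed new. Slc9a7 and Pkhd1 also held 10, all of which stayed new, while 9 of 10 did in Tbx3os1 and 7 of 10 in Cep112. In Tenm1 the strongest region lay in a coding exon (chromosome X, 42532612 to 42533092, minus strand), at 8.95-fold and 8.85-fold. The strongest Zfpm2 region (chromosome 15, 40969347 to 40969614, plus strand) stood at 7.99-fold and 7.2-fold and had peaks in 3 Mettl3 knockout libraries, at 4.51-fold to 8.82-fold. A region absent from both control lines was thus not always absent from the Mettl3 lines.

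**Figure D5:**
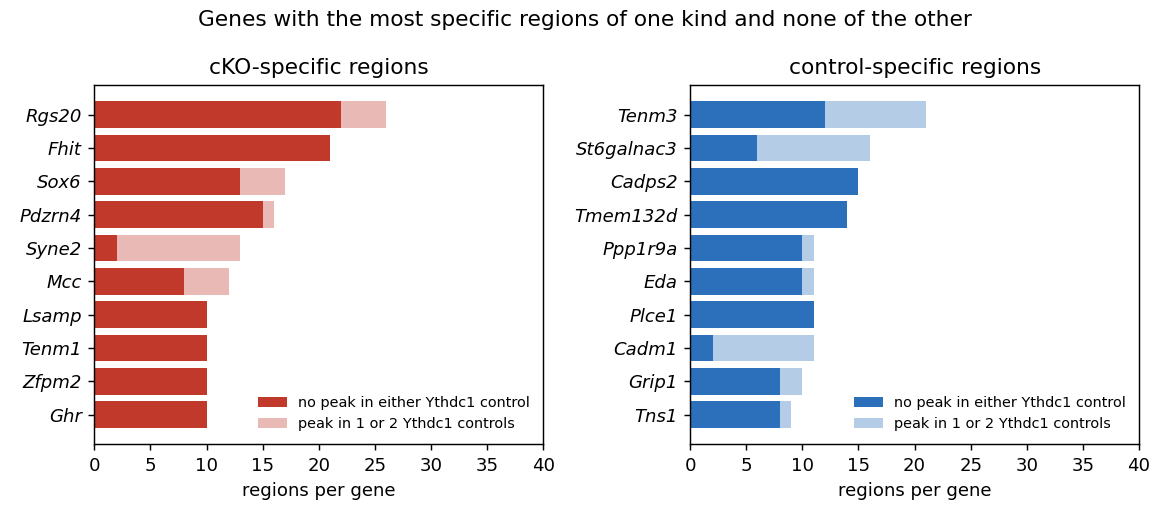
Number of cKO-specific (left) and control-specific (right) regions in the 10 genes with the most of each among genes that held none of the other kind, split by whether a Ythdc1 control had a peak there. In Fhit all 21 cKO-specific regions lacked one, and in Syne2 only 2 of 13 did.

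The strongest single regions fell into those that the Ythdc1 line also had and those it lacked. An antisense region in Tshr, the thyrotropin receptor gene (chromosome 12, 91473042 to 91474862, minus strand), reached 18.3-fold and 19-fold in the cKO, none in the Mettl3 controls and 15.7-fold and 13.3-fold in the Ythdc1 controls. An intron region of Cfap43, a cilia gene (chromosome 19, 47821735 to 47822181, minus strand), had 16.1-fold and 17.5-fold, with 10.1-fold and 10.4-fold in the Ythdc1 controls and 6.19-fold to 11.6-fold in the 4 Mettl3 knockouts. Of the 8 other libraries, only the Mettl3 controls lacked it. The Klhl3 3′ UTR region, in a gene for a ubiquitin ligase adaptor (chromosome 13, 58003379 to 58004849, minus strand), stood at 14.1-fold and 14.3-fold in the cKO and 7.67-fold and 6.23-fold in the Ythdc1 controls.

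Among regions absent from all 4 controls, a Peg10 antisense region (chromosome 6, 4756828 to 4758237, minus strand) reached 16.9-fold and 13.6-fold enrichment. Its only other peak was in 1 KO2 library, at 3.84-fold, and Peg10 is an imprinted gene derived from a retrotransposon. An intron region of Pde1c, a cyclic nucleotide phosphodiesterase gene (chromosome 6, 56077568 to 56077896, minus strand), had 13-fold and 14.1-fold, with no peak in any library outside the cKO. The Ccdc184 coding exon region (chromosome 15, 98167975 to 98169134, plus strand), whose GGAC site is shown above, reached 12.5-fold and 15.9-fold, also with no peak elsewhere. Gpc5, a glypican gene, held an intron region of 17.8-fold and 16.7-fold with 3.0-fold in 1 Ythdc1 control.

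Antisense cKO-specific regions lay in 897 genes, antisense control-specific ones in 659 and antisense shared ones in 1259. Genes with any antisense region were not counted, so these are not shares. Of the 3439 antisense regions in both cKO libraries 38.3% were cKO-specific, against 23.1% over all classes. Of the 2853 in both Mettl3 controls 29.7% were control-specific, against 21.3% over all classes. Of all antisense cKO-specific regions 75.6% stayed new. The genes named next held the most of them. Hs3st1, a heparan sulfate sulfotransferase gene, and Slc35f1 held 9 each, and all 18 stayed new. F8, the coagulation factor VIII gene on chromosome X, and Galntl6 held 7 each, all of which stayed new. Sult2a3, a sulfotransferase gene, held 8, of which 7 did. Among antisense control-specific regions Gm26573 held the most, 8, of which 5 had no peak in a Ythdc1 control.

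Chromosome X held a higher share of cKO-specific regions than the other chromosomes, 568 of 2520 (22.5%) against 13% elsewhere, while the autosomes ranged from 8.94% to 17.4%. Of its 568, 501 (88.2%) stayed new. By class the share on X was 36.0% against 25.7% for intergenic, 34.4% against 20.5% for antisense and 21.6% against 11.6% for non-coding exon regions. It was 10.8% against 8.86% in introns and 7.55% against 7.19% in coding exons, and lower on X in 3′ UTRs, at 2.53% against 6.25%, where X held 79 regions. Peaks on X made up 3.97% and 3.91% of the cKO lists, 3.24% and 3.2% of the Mettl3 controls, 2.6% and 2.51% of the Ythdc1 controls and 2.89% to 3.4% of the Mettl3 knockouts. The cKO libraries thus stood above the 8 others.

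Control-specific regions were led by Tenm3, a teneurin gene, with 21 of 58, of which 12 had no peak in a Ythdc1 control and 10 had one in all 4 Mettl3 knockouts. St6galnac3, a sialyltransferase gene, held 16, with 6 absent from both Ythdc1 controls. Cadps2, a gene of dense-core vesicle release, held 15 and Tmem132d 14, and none of these had a peak in a Ythdc1 control. Cadm1, a cell adhesion gene, held 11, and only 2 of them lacked a Ythdc1 control peak. The strongest Tmem132d region (chromosome 5, 128422745 to 128423095, minus strand) had 12.1-fold and 10.7-fold in the Mettl3 controls and 9.09-fold to 12.9-fold in the 4 Mettl3 knockouts. Ppp1r9a, Eda, Plce1 and Wwox held 11 each, of which 8 to 11 had no Ythdc1 control peak. Over all control-specific regions 63.6% lacked a Ythdc1 control peak, and Tenm3, St6galnac3 and Cadm1 lay below that share.

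The strongest control-specific region lay in the 5′ UTR of Fosb, an immediate early transcription factor gene (chromosome 7, 19309479 to 19310052, minus strand). It had 13.9-fold and 13.8-fold enrichment in the Mettl3 controls and 8.45-fold and 7.52-fold in KO1, and none in KO2, the Ythdc1 controls or the cKO. The other Fosb region, in the 3′ UTR, was control-specific too, at 10-fold and 11.5-fold. A 3′ UTR region of Ppp2r2c, a regulatory subunit of protein phosphatase 2A (chromosome 5, 36954455 to 36954736, plus strand), reached 13.2-fold and 12.2-fold in the Mettl3 controls, 6.29-fold and 5.57-fold in the Ythdc1 controls and 6.17-fold to 8.82-fold in the Mettl3 knockouts. The Zdhhc23 3′ UTR region, in a palmitoyltransferase gene, stood at 11.6-fold and 12.1-fold, with 4.98-fold and 5.1-fold in the Ythdc1 controls and 7.82-fold to 15.6-fold in the Mettl3 knockouts. A coding exon region of Adgrb1, an adhesion receptor gene (chromosome 15, 74586817 to 74587324, plus strand), showed the same pattern and reached 16.8-fold and 11.4-fold. These 3 regions had a peak in all 8 libraries outside the cKO and none in the cKO.

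Genes of the 2-cell-like state, which few cells of a stem cell culture enter and which resembles the 2-cell embryo, were the list with the largest share of control-specific regions among the 15 lists. Of their 30 regions in 16 genes, 14 (46.7%) were control-specific, in 13 genes, and 0 were cKO-specific, against 11.9% and 8.3% over all genes. Each cKO library held 12 of the 30, the Mettl3 controls 28 and 27, the Ythdc1 controls 21 and 17, KO1 6 and 9 and KO2 18 and 19. Both regions of Zfp352, a zinc finger gene, were control-specific, at 6.73-fold and 4.07-fold and at 3.51-fold and 3.92-fold, and had no peak in any other library. Tcstv1 (5.96-fold and 6.58-fold), Tcstv3 (6.44-fold and 5.22-fold) and Usp17la (3.39-fold and 5.27-fold) also had no peak in the cKO. In Zscan4b, Zscan4c, Zscan4d, Zscan4e and Zscan4f, telomere-associated zinc finger genes, the 5′ UTR region was control-specific and the coding exon region shared. The Zscan4c 5′ UTR region stood at 7.38-fold and 8.25-fold in the Mettl3 controls, and each of these 5 regions had a peak in both Ythdc1 controls. Several of these genes are near-identical copies of each other, which makes the assignment of reads uncertain, and their regions are not independent. All lists were chosen with earlier results of these data known, so their shares are descriptions.

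Very long and fragile-site genes held the most cKO-specific regions among the lists, 82 of 459 (17.9%), in 18 of 23 genes, and 54 control-specific ones (11.8%). Over all genes these shares were 8.3% and 11.9%, so only the cKO-specific share lay above that of all genes. The list was chosen with earlier results of these data known, so this is a description. The list also held the most regions of any list, and the cKO-specific share was higher in the trophoblast list described further on. Fhit gave 21 of the 82. Lsamp gave 10 and Magi2, a synaptic scaffold gene, 9, of which 8 stayed new. Ctnna3 and Dlg2 gave 6 and 5 and had 0 control-specific regions each. Diaph2 went the other way with 9 control-specific and 0 cKO-specific regions, and Wwox, Exoc4 and Immp2l held 11, 8 and 8 control-specific and 6, 3 and 3 cKO-specific ones. Long genes thus differed in direction from gene to gene.

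Among 8 markers of pluripotent cells 7 had a region, and 19 (73.1%) of their 26 regions were shared, against 44.8% of the regions of all genes. Pou5f1 had a shared and a cKO-specific coding exon region, the latter (2.11-fold and 2.28-fold) with peaks of 2.59-fold and 2.85-fold in the Ythdc1 controls. Of 74 regions in the pluripotency list 48 (64.9%) were shared, 7 (9.46%) control-specific and 2 (2.7%) cKO-specific. Nr5a2, a nuclear receptor gene, held 3 of the control-specific ones and Dppa2 2, while Prdm14 and Lefty1 held 1 each. The Dppa2 5′ UTR region (6.56-fold and 7.62-fold) had peaks in all libraries outside the cKO. Sall4 held the other cKO-specific region, at 3.64-fold and 4.66-fold, with 5.65-fold and 4.93-fold in the Ythdc1 controls, so neither cKO-specific region of this list stayed new.

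Markers of other cell types had few regions. Gata4 and Pdgfra, markers of primitive endoderm, had 1 region each, both cKO-specific, at 3.94-fold and 4.45-fold and at 3.28-fold and 3.26-fold, and the Pdgfra region had a peak in 1 Ythdc1 control. The other 4 markers of that type had no region. In the wider primitive endoderm list 5 (16.7%) of 30 regions were cKO-specific and 7 (23.3%) control-specific, with Lama1, a laminin gene, and Sparc holding both kinds. Of the 21 regions in the trophoblast list 4 (19%) were cKO-specific, against 8.3% over all genes, and 1 (4.76%) was control-specific. Gata3, Krt8, Krt18 and Ascl2 held 1 cKO-specific region each, 3 of which stayed new, and Tfap2c held the control-specific one, at 2.83-fold and 3.15-fold. Col1a2 and Col5a2, fibroblast collagen genes, held 1 control-specific region each, at 3.17-fold to 4.09-fold, with no peak in any other library. Pdgfrb, of the same list, held a cKO-specific intron region, at 3.61-fold and 3.6-fold. Over this list 1 (5.26%) of 19 regions was cKO-specific and 2 (10.5%) were control-specific. The trophoblast markers had 4 regions in 2 of 5 genes, the fibroblast markers 8 in 4 of 6 and the neural markers 7 in 3 of 4, and the 3 mesoderm markers had none. The part of other cell types in the results was not tested.

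Of 96 regions in 17 genes that make, read or remove m6A, 60 (62.5%) were shared, 7 (7.29%) control-specific, 2 (2.08%) cKO-specific and 27 in only part of a group, against 44.8%, 11.9% and 8.3% for the first 3 over all genes. All 6 Ythdc1 regions were shared, the strongest at 8.6-fold and 9.03-fold in the cKO and 6.43-fold and 9.48-fold in the controls. Peak calls do not measure transcript amount and so are no check of the genotype. The single Mettl3 region stood at 6.15-fold and 5.06-fold in the controls and at 4.24-fold in 1 cKO library, with none in the other. Alkbh5, an m6A demethylase gene, held 1 region of each kind, both in introns, and Zc3h13, a writer subunit gene, also held 1 of each. A Wtap intron region (4.2-fold and 4.37-fold), in the gene for another writer subunit, was control-specific and also present in both Ythdc1 controls. Nuclear RNA decay genes held 2 cKO-specific regions, both in Zc3h18, and 2 control-specific ones, in Exosc5 and Zfc3h1, among 62. Genes of cleavage and polyadenylation held 1 and 9 among 81, with 2 control-specific regions in Cpsf3, the endonuclease gene, and the cKO-specific one in Cstf2. SR splicing factor genes held 4 and 2 among 43. Srrm2 held 2 of each kind, and Srsf7 and Srsf10 held 1 cKO-specific region each, both also present in both Ythdc1 controls.

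In the remaining lists the shares can be read against 8.3% cKO-specific and 11.9% control-specific over all genes. Among 136 regions of nuclear and imprinted long non-coding RNAs, 11 (8.09%) were cKO-specific and 12 (8.82%) control-specific. Airn, which silences imprinted genes near Igf2r, held 8 of the 11, of which 5 stayed new, at 3.1-fold to 7.05-fold. Pvt1 held 5 of the 12. Wnt pathway genes held 6 (5.83%) and 14 (13.6%) of 103. The strongest of the 6 lay in a coding exon of Rnf43, a ubiquitin ligase that removes Wnt receptors (chromosome 11, 87731035 to 87732484, plus strand) and reached 9.56-fold and 11.8-fold, with no peak in any other library. Axin2 held 2 cKO-specific intron regions and Lef1 1, and all 3 stayed new. Immediate early and MAPK feedback genes held 6 (11.1%) and 7 (13%) of 54. Myc held 2 of the 6, the stronger in a coding exon (8.51-fold and 7.55-fold) with peaks in all 6 libraries outside the comparison, so only the Mettl3 controls lacked it. Dusp4, a MAPK phosphatase gene, held a 5′ UTR region of 5.14-fold and 5.03-fold found only in the cKO. Genes of H3K9 methylation and silencing held 2 (2.22%) and 8 (8.89%) of 90, Suv39h1 and Cbx5 with 2 control-specific regions each.

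GGAC lay within 50 nt of the summit in 47.2% and 48.6% of cKO-specific exonic regions in the 2 cKO libraries (1391 and 1395 windows, Wilson 95% intervals 44.6 to 49.9 and 46.0 to 51.2). In windows shifted by 1 kb along the transcript it was found in 31.9% and 32.4%. In control-specific exonic regions it lay near 45.9% and 45.8% of summits in the 2 controls, and in shared ones near 51.4% to 53.4% in the 4 libraries. Specific regions thus held it more often than shifted windows. Their intervals lay below those of shared regions in both controls and in cKO replicate 1, but in cKO replicate 2 the intervals overlapped (46.0 to 51.2 against 50.5 to 52.4). These intervals cover counting error only. DRACH, a common sequence, was found near 90.1% and 90.8% of cKO-specific summits and in 87.0% and 87.5% of shifted windows. The motifs of intron and intergenic regions were not analysed here. The control RNA of the m6A kit was read in the cKO, Mettl3 control and Ythdc1 control lists and gave a plus-strand peak in each. It was of 14.6-fold and 14.1-fold in the cKO and 18.2-fold and 11.1-fold in the Mettl3 controls, so these groups overlapped. A minus-strand peak was also called in Mettl3 control replicate 2 (2.93-fold) and Ythdc1 control replicate 2 (2.77-fold). Whether reads of the wrong strand bear on the antisense calls was not tested.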

How the data were processed

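Chromatin-associated RNA was depleted of ribosomal RNA, mixed with control RNA, fragmented and immunoprecipitated with an m6A kit, and stranded libraries were made, per the labels' protocols. CASAVA, Trimmomatic 0.38, HISAT2 2.1.0, MACS2 and mm10 were used, per the submitters' processing notes. MACS2's version and settings, and whether inputs entered the calls, are not given in the sources used here. In each library's file the deposited lists give per peak, called on each strand, a display score, a fold enrichment (a ratio over background) and the −log10 p-value and q-value. Peaks were at least 150 bp wide with a −log10 q of at least 2. Read totals were not used here. The background pile-up was solved from the fold and p of 2000 peaks per strand.

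Peaks of the main chromosomes were merged (other contigs held 21 to 35 peaks per list), and the summit of highest rank was annotated with GENCODE M21. It was given the first class that applied, looking first in a gene of its own strand (3′ UTR before coding exon, then 5′ UTR, exon of a non-coding transcript, intron), then antisense, within 2 kb upstream of a gene, or intergenic. Python 3.11.15, pandas 2.3.3 and scipy 1.17.1 were used. Calls were tested on simulated lists. Genes with the most specific regions, the strongest regions of each kind, the longest runs and list members with most specific regions are named. Members and lists were chosen with earlier results of these data known. Alternatives varied the overlap, strand, threshold, list length and libraries.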

Additional observations from a re-analysis of the deposited data

How the results depend on the processing

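Counts were recomputed with an overlap of at least 50% of the shorter peak, peaks within 200 bp merged, no regard to strand, a −log10 q of at least 5 for every peak or for presence only, and 41941 peaks per list. The cKO-specific count stayed between 8414 and 8959, the control-specific between 7262 and 8074, and those that stayed new between 5761 and 6301. Leaving out 1 library at a time gave 10198 to 12574 cKO-specific, 9644 to 12679 control-specific, 27651 to 28121 shared and 6740 to 8807 regions that stayed new, since fewer lists must then agree. The intergenic share of cKO-specific regions was 42.4% without regard to strand and 35.7% to 38.4% with a library left out. The per-library intergenic difference lay between 5.28 and 5.89 points. Replicate numbers are not said to pair libraries. With a replicate block the differences were 5.98 and 5.19 points, mean 5.59 (exact permutation p = 0.5, the smallest possible). Absence from a list means no call at that depth.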
